A study of Rattus norvegicus with 6 samples.

Results

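The colony stimulating factor receptors of myeloid cells and the Trem2 receptor with its adaptor Tyrobp were followed as 8 genes, namely Csf1, Il34, Csf1r, Trem2, Tyrobp, Csf2rb, Csf2ra and Csf3r. Members were found by gene symbol among the 43350 gene rows of the deposited table, and where a symbol stood on several rows the protein-coding row with the most counts was taken. The samples were dorsal root ganglia (DRG) of lumbar levels 4 to 6 from male Sprague-Dawley rats, with 3 rats after chronic constriction injury (CCI) and 3 sham rats, all taken 11 days after surgery. In CCI rats the left sciatic nerve was loosely tied with absorbable suture, whereas in sham rats it was exposed but not tied, although the labels list no treatment for them. The ganglia came from the operated side. No age stands in the labels, and the methods give 6 to 8 weeks at purchase, before a habituation period. According to the methods, rats were perfused with cold saline, kept for the study when their paw withdrawal behaviour was as intended for their group, and then drawn at random for sequencing. The labels' library protocol mentions pooling while the methods describe a single rat for each sample, and the latter reading was followed. Surgery was done under isoflurane in both groups.

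Csf1 and Il34 are the secreted ligands of Csf1r, a receptor tyrosine kinase on which tissue macrophages depend for survival and division. Trem2 is a lipid-sensing receptor of phagocytes without a signalling tail of its own, and it passes its signal through Tyrobp (DAP12), an adaptor that also serves other myeloid receptors and recruits the kinase Syk. Csf2rb is the shared beta chain of the receptors for GM-CSF, interleukin-3 and interleukin-5, Csf2ra is the GM-CSF binding chain, and Csf3r is the receptor for G-CSF, best known on neutrophils. In sensory ganglia, injured neurons are a known source of Csf1, and macrophages around the neurons carry Csf1r.

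Library totals lay between 75423546 and 87615743 counts, so that 3 counts, taken as the detection limit, equalled 0.0342 to 0.0398 CPM, which are counts scaled to the library total. FPKM values are the counts divided by row length and library total, and they allow levels of different genes to be set side by side within a library. The test of change was edgeR's quasi-likelihood test, run on the counts of all 26663 rows whose mean FPKM reached 0.5. The call required an unadjusted p below 0.05 together with a log2 fold change that reached 0.58 in either direction. Adjusted p-values follow Benjamini-Hochberg across every row tested. Neuronal genes identified the tissue as labelled, with summed FPKM of the 11 sensory neuron markers, among them Uchl1 and Prph, between 3117 and 3719 in every library. Skeletal muscle markers, led by Acta1 and Mylpf, stood apart in sham 1, where their summed FPKM was 138.9 against 4.32 to 20.4 in the other 5 libraries. In the CCI group, 4 of these 6 muscle genes (Acta1, Ckm, Mylpf and Actn3) were called lower, against 1.26% of all rows tested called lower. No member was called lower, and leaving out sham 1 changed no call among the members.

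Of the 8 members, 7 passed the filter and 4 of these, Csf1, Csf2rb, Tyrobp and Csf1r, were called higher in the CCI group, against 2.57% of all rows tested. For each of these 4 every CCI library lay above every sham library, which held for 8.63% of all rows. Il34, Trem2 and the row of Csf2ra were not called, with groups that overlapped. Csf3r had a mean FPKM of 0.498 and lay just under the filter. None of the 7 had an adjusted p below 0.05 by edgeR's quasi-likelihood test, and 4 had an unadjusted p below it. The adjusted limit was reached by 0.0938% of all rows, while adjusted p-values of the members ran from 0.137 for Csf1 to 0.965 for Trem2. DESeq2 placed all 4 called members under an adjusted p of 0.05 and limma on log2(FPKM + 1) placed 0 there. The median log2 fold change of the 7 was 0.75, beside 0.0055 over all rows tested. In bulk ganglia, fewer or more cells of a type and less or more RNA per cell cannot be told apart.

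**Figure D1:**
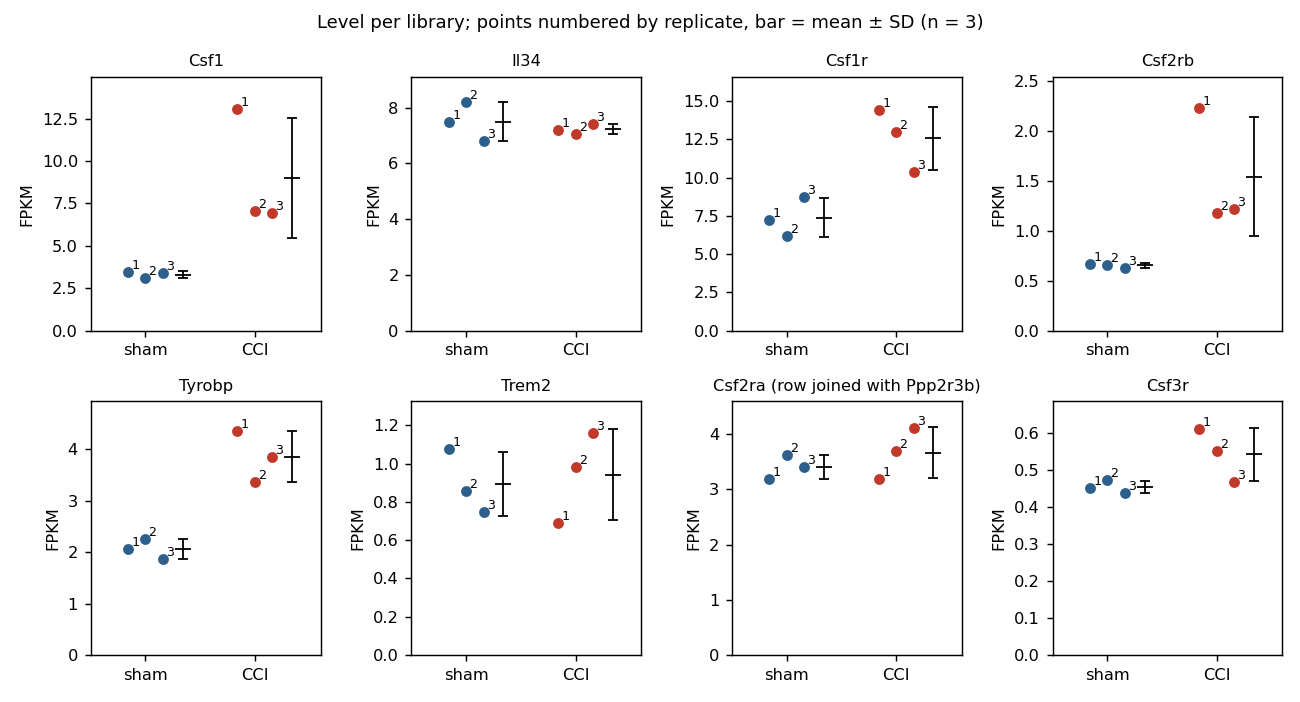
FPKM of the 8 members in each of the 6 libraries, with points numbered by replicate and bars for the mean ± SD of 3 rats. For Csf1, Csf1r, Csf2rb and Tyrobp all CCI points lie above all sham points, while the groups overlap for Il34, Trem2, Csf2ra and Csf3r.

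The promoters of 2 macrophage genes are shown, Csf1r, which was called, and Trem2, which was not. Whether the fold changes of these 2 genes differ was not tested, nor was any link between promoter letters and expression. RefSeq sequences of the GRCr8 build, covering 250 bases before to 50 after the start, were on hand for 4 of the 8 members, Csf1r, Trem2, Csf2ra and Csf3r. They are written 5′ to 3′ on the strand of the gene, and capitals mark the core letters of the binding motif of PU.1, the myeloid factor encoded by Spi1 (GAGGAA, or TTCCTC on the other strand).
Csf1r promoter, GRCr8 chr18:56834129-56834428, plus strand: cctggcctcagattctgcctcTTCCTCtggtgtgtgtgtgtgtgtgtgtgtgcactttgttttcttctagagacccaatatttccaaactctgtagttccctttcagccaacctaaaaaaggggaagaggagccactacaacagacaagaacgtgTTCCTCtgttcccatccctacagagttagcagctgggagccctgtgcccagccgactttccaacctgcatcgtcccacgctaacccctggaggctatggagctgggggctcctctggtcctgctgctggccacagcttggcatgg
Trem2 promoter, GRCr8 chr9:20151730-20152029, minus strand: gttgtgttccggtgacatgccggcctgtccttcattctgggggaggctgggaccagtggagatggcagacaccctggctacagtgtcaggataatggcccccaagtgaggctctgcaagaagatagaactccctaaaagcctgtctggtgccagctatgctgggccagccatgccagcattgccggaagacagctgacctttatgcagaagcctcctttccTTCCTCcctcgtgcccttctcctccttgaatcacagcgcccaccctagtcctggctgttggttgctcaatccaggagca
The Csf1r window held these letters at 2 places, 229 to 224 and 95 to 90 bases before the start, and the Trem2 window held them once, 29 to 24 bases before the start. The windows of Csf2ra and Csf3r held them once each as well, beginning 41 and 160 bases before the start. Among the 33469 promoters of the same length, 27.6% had at least 1 match on either strand. A search on both strands for the AP-1 letters TGANTCA found 1 match in the Trem2 window and 0 in the other 3, against 7.33% of all promoters. The motifs did not overlap in these windows, and such matches describe letters and not binding.

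Csf1 and Il34 bind the same receptor, and of the pair Csf1 alone was called. Csf1 (chromosome 2, 210522375 to 210550560 in the rat genome the authors call V101, minus strand) had an FPKM of 13.1, 7.03 and 6.91 in CCI 1, 2 and 3 and of 3.45, 3.08 and 3.37 in sham 1, 2 and 3. CCI 1 stood well above the other CCI libraries, and the lowest CCI library still had about double the level of the highest sham library. On the CPM scale the means were 39.9 ± 15.8 in the CCI group and 14.8 ± 0.805 in the sham group (SD, n = 3). The log2 fold change was 1.43 (standard error, SE, 0.26, 95% confidence interval 0.81 to 2.06, unadjusted p = 0.00117 by edgeR's quasi-likelihood fit), a 2.70-fold increase. Without CCI 1 the log2 fold change was 1.06 and the adjusted p of edgeR's quasi-likelihood test was 0.0187, so that Csf1 then passed the adjusted limit.

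Il34 (chromosome 19, 40855433 to 40904121, plus strand) had an FPKM of 7.21, 7.05 and 7.43 in CCI 1, 2 and 3 and of 7.49, 8.20 and 6.82 in sham 1, 2 and 3. The CCI values lay inside the range of the sham values. Its log2 fold change was -0.07 (SE 0.09, adjusted p = 0.865 by edgeR's quasi-likelihood test), with a 95% confidence interval from a 0.815-fold to a 1.11-fold level. Another 3 rows without a gene type carry the same symbol, lie inside this locus on either strand, and were not called, with log2 fold changes of -0.34, 0.19 and -0.32. The library kit marked strand, but whether counting used it is not given in the sources used here, so reads of these rows and of Il34 could be shared.

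The ligand ratio was set out within each library. Csf1 reached 1.82, 0.996 and 0.930 times the FPKM of Il34 in CCI 1, 2 and 3, compared with 0.460, 0.376 and 0.495 times in sham 1, 2 and 3. By FPKM, Il34 was therefore the ligand with more RNA in every sham library. The ligands stood near parity in CCI 2 and 3, with Csf1 ahead in CCI 1. This order depends on the row lengths, 4.45 kb for Csf1 and 1.92 kb for Il34. Without division by length, the sham means were 14.8 CPM for Csf1 and 14.5 CPM for Il34. In CCI 2 and 3, Csf1 had 31.1 and 30.4 CPM and Il34 13.5 and 14.2 CPM. Ligand protein was not measured. The log2 ratio was 0.25 ± 0.53 in the CCI group and -1.18 ± 0.21 in the sham group (SD, n = 3), a difference of 1.43 (two-sided exact permutation p = 0.1, the smallest that 3 against 3 allows). Of the other proteins known to bind Il34, Sdc1 (syndecan-1) was called higher, with 15.2, 8.18 and 5.18 CPM in CCI 1, 2 and 3 and 2.85, 2.55 and 2.86 CPM in sham 1, 2 and 3. Its log2 fold change was 1.79 (SE 0.38, adjusted p = 0.189 by edgeR's quasi-likelihood test). Ptprz1, a receptor phosphatase, measured 170.5 ± 11.8 CPM after CCI and 165.8 ± 7.67 CPM after sham surgery (SD, n = 3) and was not called.

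Csf1r (chromosome 18, 56414488 to 56457869, plus strand), the receptor of both ligands, had an FPKM of 14.4, 13.0 and 10.3 in CCI 1, 2 and 3 and of 7.21, 6.19 and 8.74 in sham 1, 2 and 3. The groups did not overlap, although CCI 3 and sham 3 came close. In CPM the means were 54.8 ± 9.18 and 32.5 ± 5.77 (SD, n = 3), with a log2 fold change equal to 0.75 (SE 0.17, 95% confidence interval 0.35 to 1.16, adjusted p = 0.208 by edgeR's quasi-likelihood test). This is a 1.68-fold level, and it stayed between 0.64 and 0.90 on the log2 scale with any 1 library left out.

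Several other macrophage genes were called alongside the receptor. Of 14 listed macrophage markers, 13 were found and tested, and 6 were called higher, 0 lower, with a median log2 fold change of 0.52. The 6 were Cx3cr1 (fractalkine receptor), Cd68 (a lysosomal glycoprotein), the complement genes C1qa, C1qb and C1qc, and Lyz2 (lysozyme), with log2 fold changes of 1.11, 0.87, 1.13, 1.12, 0.98 and 0.98 in that order. Adgre1 (F4/80) and Cd163 (a scavenger receptor of resident macrophages) had log2 fold changes of 0.02 and -0.0033 and were not called. Ptprc (CD45) and Aif1 (Iba1) had log2 fold changes of 0.52 and 0.50, under the fold limit. The summed FPKM of the 13 markers was 315.2, 223.7 and 226.9 in CCI 1, 2 and 3 and 138.5, 122.8 and 133.6 in sham 1, 2 and 3. Lyz2 alone made up 243.0, 163.5 and 179.9 of these sums in the CCI libraries and 108.0, 90.5 and 95.2 in the sham libraries. Without Lyz2 the sums were 72.2, 60.2 and 47.0 in CCI 1, 2 and 3 and 30.6, 32.3 and 38.4 in sham 1, 2 and 3, and the groups still did not overlap.

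Csf1r was also set against those markers in the same library. Its log2 FPKM lay above the mean log2 FPKM of the 13 markers by 1.44, 1.57 and 1.46 in CCI 1, 2 and 3 and by 1.40, 1.16 and 1.48 in sham 1, 2 and 3. The groups overlapped, with a difference of 0.14 (two-sided exact permutation p = 0.3, where 0.1 is the smallest possible). The sign rests on the choice of markers, since against C1qc and Lyz2 alone, the 2 markers with a mean FPKM of at least 10, the difference was -0.21.

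**Figure D2:**
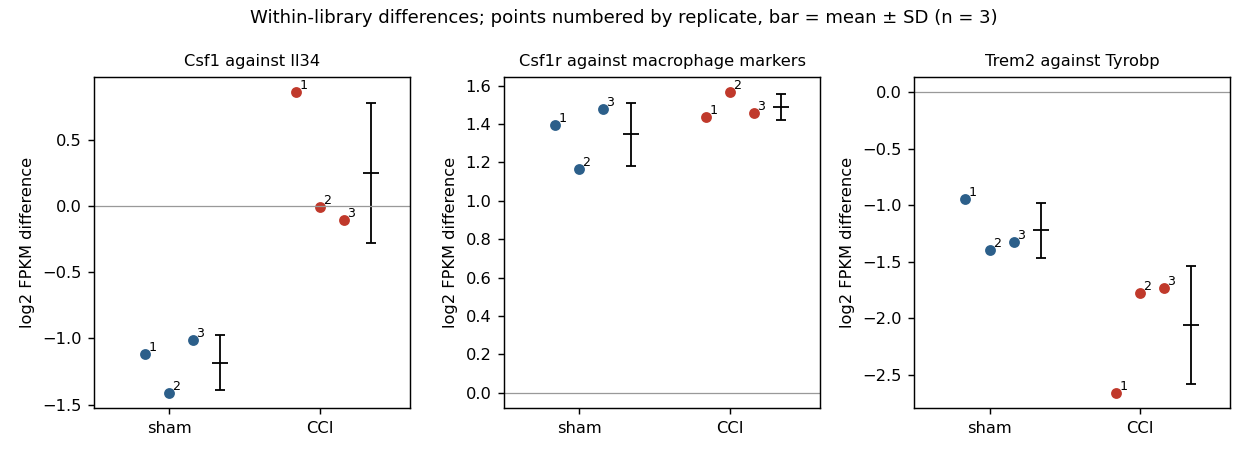
Within-library log2 FPKM differences of Csf1 minus Il34, of Csf1r minus the mean of 13 macrophage markers and of Trem2 minus Tyrobp, with points numbered by replicate and bars for the mean ± SD of 3 rats. The CCI and sham points separate for the first and the last difference and overlap for Csf1r against the markers.

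Of the adaptor and its receptor, Tyrobp was called higher and Trem2 was not called. Tyrobp (chromosome 1, 88875375 to 88879303, plus strand) gave counts of 235, 179 and 193 in CCI 1, 2 and 3 and of 121, 120 and 104 in sham 1, 2 and 3. Every CCI library was above every sham library. Mean levels were 2.55 ± 0.337 and 1.38 ± 0.127 CPM (SD, n = 3), a log2 fold change equal to 0.88 (SE 0.19, 95% confidence interval 0.43 to 1.34, adjusted p = 0.189 by edgeR's quasi-likelihood test), or 1.84-fold.

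Trem2 (chromosome 9, 14611561 to 14618013, minus strand) gave counts of 72, 100 and 112 in CCI 1, 2 and 3 and of 120, 88 and 80 in sham 1, 2 and 3. The lowest and, on the FPKM scale, the highest of the 6 libraries were both CCI libraries, CCI 1 and CCI 3. Means were 1.20 ± 0.295 and 1.15 ± 0.202 CPM (SD, n = 3), and the log2 fold change was 0.06 (SE 0.28, adjusted p = 0.965 by edgeR's quasi-likelihood test). The 95% confidence interval ran from a 0.660-fold to a 1.65-fold level, so a change of the fold limit in either direction could not be told from none at this depth. At the mean count of Trem2, counting error alone has a coefficient of variation of 10.2%. Its direction also turned when CCI 3 or sham 3 was left out, to log2 fold changes of -0.11 and -0.05.

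In the same library Trem2 stood at 0.158, 0.291 and 0.301 times the FPKM of Tyrobp in CCI 1, 2 and 3 and at 0.519, 0.379 and 0.400 times in sham 1, 2 and 3. All CCI ratios were lower than all sham ratios. The log2 ratio was -1.22 ± 0.24 in the sham group and -2.06 ± 0.52 in the CCI group (SD, n = 3), a difference of -0.83 that is as far as 3 against 3 can separate (two-sided exact permutation p = 0.1). Without CCI 1 it was -0.53, a move of more than 1.5 times.

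Among the other Tyrobp-coupled receptors listed, Klrk1 alone passed the filter. Of the 8 genes listed as Tyrobp-coupled receptors, the sister adaptor Hcst (DAP10) and the Trem2 sheddases, 3 were tested and 0 called. Trem1 had at most 7 counts and Trem3 at most 10 counts in any library, and Hcst 15, 21 and 12 in CCI 1, 2 and 3 against 0, 8 and 0 in sham 1, 2 and 3, under the filter. Clec5a gave 46 to 84 counts and Cd300lb 15 to 33, also under the filter. Klrk1 gave 34 to 107 counts, beside 72 to 120 for Trem2. The sheddases Adam10 and Adam17 had log2 fold changes of -0.0077 and 0.06 and Klrk1 (NKG2D) 0.61, none of them called.

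Among 13 genes of the phagocyte program known to depend on Trem2 in the brain, 12 were tested. Of these, 2 were called higher and 0 lower, against 2.57% of all rows tested called higher. The untested gene, Cst7, lay under the filter, with 0.659 ± 0.0873 CPM after CCI and 0.318 ± 0.0542 CPM after sham surgery (SD, n = 3). Its groups did not overlap. Clec7a (dectin-1, a receptor for fungal glucans) measured 11.4, 11.5 and 6.13 CPM in CCI 1, 2 and 3 and 2.05, 2.16 and 1.64 CPM in sham 1, 2 and 3. Its log2 fold change of 2.31 (SE 0.28, adjusted p = 0.0714 by edgeR's quasi-likelihood test) was above those of all members tested. Itgax (CD11c) measured 2.99, 5.25 and 2.85 CPM in the CCI libraries and 2.26, 1.44 and 2.57 CPM in the sham libraries, with a log2 fold change equal to 0.82 (SE 0.33, adjusted p = 0.446 by edgeR's quasi-likelihood test). The abundant lipid carrier Apoe measured 1623 ± 83.7 CPM after CCI and 1582 ± 79.6 CPM after sham surgery (SD, n = 3) and was not called. Spp1 (osteopontin), Lpl (lipoprotein lipase) and Gpnmb had log2 fold changes of 0.25, -0.26 and 0.20 and were not called either. Axl, a receptor tyrosine kinase for apoptotic cell uptake, Cd63, a tetraspanin of late endosomes, and Fabp5, a fatty acid binding protein, had log2 fold changes of 0.39, 0.37 and 0.53, under the fold limit. For these 3 every CCI library lay above every sham library, as for Clec7a and Itgax, which makes 5 of the 12. Over all rows tested the share was 8.63%. The median of the 12 was 0.29, with 11 of them positive. Apoe, Spp1 and Lpl are also expressed by glia or neurons, and which cells gave their RNA here was not tested.

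Signalling proteins that act below Csf1r and Tyrobp were tested for 15 of 16 listed genes, of which 3 were called higher and 0 lower, with a median log2 fold change of 0.20. Lcp2 (SLP-76, an adaptor that Syk phosphorylates) had 6.74, 6.67 and 6.71 CPM in CCI 1, 2 and 3 and 3.94, 4.13 and 3.37 CPM in sham 1, 2 and 3, with near-equal CCI libraries. Its log2 fold change was 0.81 (SE 0.13, adjusted p = 0.109 by edgeR's quasi-likelihood test). Vav1, a guanine nucleotide exchange factor, and Blnk, a further adaptor, were called with log2 fold changes of 0.69 and 0.80. Plcg2, the phospholipase below Trem2, had a log2 fold change of 0.52 and Syk itself 0.24, neither called. Grb2 and Cbl, which every cell uses, had log2 fold changes of -0.09 and 0.14.

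Of the 8 listed transcription factors of myeloid cells, 1 was called higher and 0 lower, against 2.57% of all rows tested called higher. The called gene was Spi1, which encodes PU.1, the factor that myeloid cells need for Csf1r expression. Spi1 had 3.15, 2.61 and 2.87 CPM in CCI 1, 2 and 3 and 1.64, 1.67 and 1.37 CPM in sham 1, 2 and 3, a log2 fold change equal to 0.88 (SE 0.18, adjusted p = 0.169 by edgeR's quasi-likelihood test). The fold was close to that of Tyrobp. Cebpa had a log2 fold change of 0.90 at an unadjusted p of 0.0513 by edgeR's quasi-likelihood fit, and Irf8 had one of 0.44, both below the call. The median of the 8 was 0.37.

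**Figure D3:**
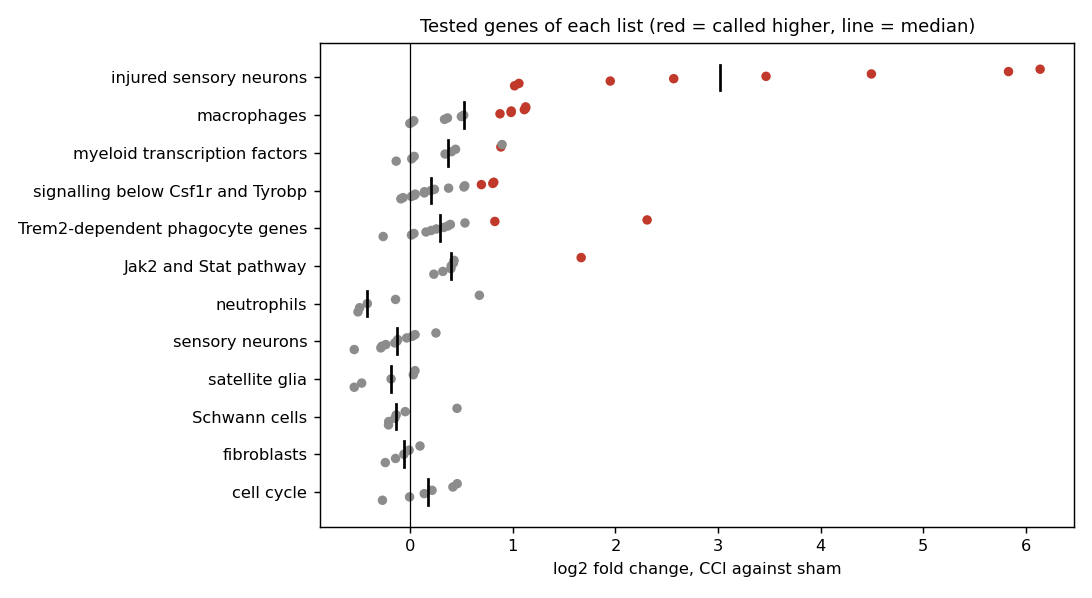
Log2 fold change of each tested gene in 12 of the gene lists, with red points for genes called higher and a black line for the median of the list. Injured neuron genes are all red with a median of 3.02, macrophage markers have 6 red points, and the lists of neurons, glia, fibroblasts, neutrophils and the cell cycle have none.

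Csf2rb showed a fold second to that of Csf1 among the members. The gene (chromosome 7, 119554354 to 119568776, plus strand) had an FPKM of 2.23, 1.18 and 1.22 in CCI 1, 2 and 3 and of 0.671, 0.658 and 0.629 in sham 1, 2 and 3. As with Csf1, CCI 1 was far above CCI 2 and 3, and the sham libraries were tightly grouped. The means were 5.62 ± 2.20 and 2.41 ± 0.0653 CPM (SD, n = 3), and the log2 fold change was 1.22 (SE 0.28, 95% confidence interval 0.55 to 1.89, adjusted p = 0.212 by edgeR's quasi-likelihood test), a 2.33-fold level. Without CCI 1 the log2 fold change was 0.85, and limma on log2(FPKM + 1) gave 0.60, a scale that shrinks the change of low genes.

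The alpha chains tested beside Csf2rb were not called, and the ligands listed for Csf2rb and Csf3r were not detected. Csf2ra stands on a row joined with Ppp2r3b, a phosphatase subunit gene (chromosome 14, 1461412 to 1476343, plus strand), so its own level cannot be read from it. That row had an FPKM of 3.19, 3.69 and 4.12 in CCI 1, 2 and 3 and of 3.20, 3.63 and 3.41 in sham 1, 2 and 3. The log2 fold change came to 0.09 (SE 0.11, adjusted p = 0.855 by edgeR's quasi-likelihood test). Its 95% confidence interval ran from a 0.886-fold to a 1.27-fold level. A second row with the Csf2ra symbol on the opposite strand had between 0 and 35 counts and was under the filter. Il3ra, the interleukin-3 binding chain, measured 13.9 ± 2.14 CPM after CCI and 13.3 ± 0.959 CPM after sham surgery (SD, n = 3) and was not called. Il5ra had at most 21 counts in a library. The ligand genes Csf2, Csf3, Il3 and Il5 had 0 counts in all 6 libraries, which allows at most 0.0398 CPM in the shallowest library for counting error alone.

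Csf3r (chromosome 5, 144031402 to 144051600, plus strand) gave counts of 223, 199 and 159 in CCI 1, 2 and 3 and of 178, 170 and 165 in sham 1, 2 and 3. CCI 3 had fewer counts than any sham library, and scaled to FPKM it lay below sham 2 alone, so that the groups overlapped. In the fit without a filter its log2 fold change was 0.24 (SE 0.19, adjusted p = 0.730 by edgeR's quasi-likelihood test), with a 95% confidence interval from a 0.873-fold to a 1.61-fold level. Of 9 neutrophil markers, 5 were tested and 0 called, and for each of these the groups overlapped. S100a8 and S100a9, the abundant calprotectin genes of neutrophils, had log2 fold changes of -0.49 and -0.14, with sham 1 highest for both at 5.98 and 6.91 CPM. Mmp8, a neutrophil collagenase, pointed the other way with an uncalled log2 fold change of 0.67 (SE 0.63), the one positive value of the 5. The sign for S100a9 rested on sham 1, since its CCI libraries had 3.67, 2.73 and 2.73 CPM against 1.56 and 1.61 in sham 2 and 3. Every CCI library of Mmp8 also lay above sham 2 and 3, whereas the tested markers S100a8, Lcn2 and Camp overlapped with them. The markers under the filter were Mmp9, Elane, Cxcr2 and Mpo, each with overlapping groups. Their mean CPM ratios between CCI and sham were 2.21, 1.76, 1.69 and 1.01. Mmp9 measured 1.91, 0.645 and 0.657 CPM in CCI 1, 2 and 3 and 1.20, 0.114 and 0.145 CPM in sham 1, 2 and 3. The neutrophil granule gene Elane had 8 to 18 counts in every library.

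Below Csf2rb and Csf3r, the kinase Jak2 and the Stat proteins had positive but uncalled differences. Of 8 listed genes, 7 were tested, all had a positive log2 fold change, and 1 was called higher, against 2.57% of all rows tested. For 6 of the 7 every CCI library lay above every sham library, which held for 8.63% of all rows tested. The called gene was Socs3, a feedback inhibitor of the Csf3r and gp130 receptors, with 6.83, 6.08 and 3.02 CPM in CCI 1, 2 and 3 and 1.80, 1.43 and 1.79 CPM in sham 1, 2 and 3. Its log2 fold change was 1.67 (SE 0.32, adjusted p = 0.157 by edgeR's quasi-likelihood test). Stat5a, Stat5b, Jak2 and the Stat5 target Cish had log2 fold changes of 0.43, 0.42, 0.40 and 0.40, under the fold limit.

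**Figure D4:**
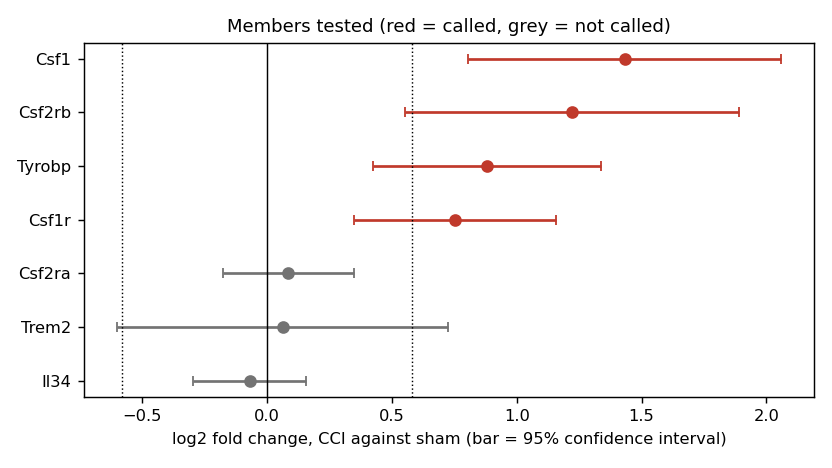
Log2 fold change of the 7 members tested, CCI against sham, with bars for the 95% confidence interval of edgeR's quasi-likelihood fit and dotted lines at the fold limit of 0.58 in either direction. The intervals of Csf1, Csf2rb, Tyrobp and Csf1r lie above 0 and those of Csf2ra, Trem2 and Il34 span 0.

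Ordered by mean FPKM in the sham group, the members ran Il34 (7.50), Csf1r (7.38), the joined row of Csf2ra (3.41), Csf1 (3.30), Tyrobp (2.07), Trem2 (0.893), Csf2rb (0.653) and Csf3r (0.454). The ranges of Il34 and Csf1r overlapped, as did those of the Csf2ra row and Csf1, while each other pair of neighbours was apart. In the CCI group Csf1r led (12.6), followed by Csf1 (9.01), Il34 (7.23), Tyrobp (3.86), the Csf2ra row (3.67), Csf2rb (1.54), Trem2 (0.944) and Csf3r (0.542). Here the neighbours Csf1r and Csf1, Csf1 and Il34, and Tyrobp and the Csf2ra row overlapped. By mean FPKM, Csf1 stood below Il34 in the sham group and above it in the CCI group, with overlap in the latter. By the same measure, Csf2rb stood below Trem2 in the sham group and above it in the CCI group. Both sham orders depend on division by row length, which was 3.66 kb for Csf2rb and 1.28 kb for Trem2. Without it, the sham means were 14.8 CPM for Csf1 and 14.5 CPM for Il34. For Csf2rb and Trem2 they were 2.41 and 1.15 CPM, so Csf2rb was then the higher in the sham group as well.

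The members also differed in which library was highest. CCI 1 ranked first of the 6 libraries for Csf1, Csf1r, Tyrobp, Csf2rb and Csf3r and last for Trem2. It was also last for the row of Csf2ra, but almost level with sham 1 (FPKM of 3.19 and 3.20). Injured neuron genes had the same leading library, with summed FPKM of 460.3, 291.2 and 257.5 in CCI 1, 2 and 3 and 84.1 to 91.8 in the sham libraries. All 8 of these genes, namely Npy, Sprr1a, Gal, Atf3, Ecel1, Sox11, Jun and Gap43, were called higher, against 2.57% of all rows tested. Their log2 fold changes ran from 1.02 for Gap43, a growth cone protein, to 6.14 for the neuropeptide Npy. Atf3, the injury-induced transcription factor, measured 116.5, 67.4 and 53.8 CPM in CCI 1, 2 and 3 and 6.32, 8.00 and 7.18 CPM in sham 1, 2 and 3. Of the 13 macrophage markers, 9 were highest in CCI 1, Ptprc and Aif1 were highest in CCI 2, and Adgre1 and Cd163 were highest in sham 3. The part of neuronal injury and of macrophage RNA in the order of the CCI libraries was not tested.

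None of the sensory neuron, satellite glia, Schwann cell and fibroblast markers tested was called, and their medians were -0.13, -0.19, -0.14 and -0.06 on the log2 scale. Nefh, the heavy neurofilament chain, had the lowest log2 fold change of the neuron markers at -0.54, under the fold limit, with every CCI library below every sham library. Abundant markers among them were Uchl1 and Prph for neurons, Glul for satellite glia, Pmp22 for Schwann cells, and Dcn and Col3a1 for fibroblasts. T cell and B cell markers were too low to be tested, with summed FPKM of 0.589 to 1.05 for the 6 T cell genes, among them Lck and Cd3g, and of 0.492 to 1.06 for the 4 B cell genes, among them Cd79a. Of the 6 cell cycle genes, all were tested and 0 called, with log2 fold changes from -0.27 to 0.46. Mki67 and Ccnb1, the most abundant of them per length, had log2 fold changes of -0.0060 and 0.14.

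The genes most like 3 of the members over the 6 libraries were sought among 11605 or more protein-coding rows whose mean FPKM reached 1. Likeness was the root mean square difference of log2(CPM + 0.5) after each gene was centred on its mean. Nearest to Csf1 were Sema6a, a transmembrane semaphorin, with a difference of 0.056, Ccdc172 with 0.063 and Stmn4, a neuronal stathmin, with 0.085. Sema6a measured 120.6 ± 40.2 CPM after CCI and 47.5 ± 2.04 CPM after sham surgery (SD, n = 3). Nearest to Csf1r were Crtac1, Mrap2 and Prokr2, with differences of 0.084, 0.086 and 0.108. Nearest to Trem2 were LOC100910130, Lima1 and Adgrf5, with differences of 0.031, 0.031 and 0.044, and these 3 were not called. No macrophage marker of the list was among the 3 nearest to Csf1r or Trem2. With 3 places among so many rows this absence tells little, and Itgam and Cd14, under a mean FPKM of 1, were not searched. Trem2 is low, so the added 0.5 shrinks its differences more than those of Lima1 and Adgrf5.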

How the data were processed

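The deposited table gives, for each assembled gene row, read counts and FPKM values of 6 DRG libraries, 3 CCI and 3 sham. Per the methods, the authors mapped clean reads with HISAT, assembled transcripts with StringTie and normalised expression levels as FPKM. The deposited counts are whole numbers with a different total in each library, and were taken as not normalised. The submitters' processing notes list HISAT2 2.0 and StringTie 1.3.0. The FPKM values, made by the authors, are those counts per row length and library total, and rows with 0 counts are listed at 0.0001. The 6849 rows without a symbol, holding 5.37% to 5.72% of a library's counts, stayed in the fit, and rows with a symbol alone were an alternative added after seeing the data. No numeric column was left unused.

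Library totals of 75423546 to 87615743 set the precision given in the text. Counts were fitted with edgeR 4.0.16 (glmQLFit, glmQLFTest) using all 6 libraries, TMM factors of 0.988 to 1.01 and rows whose mean FPKM reached 0.5. Standard errors are the log2 fold change divided by the square root of F, and 95% intervals use the t distribution of the moderated fit. CPM uses the TMM-scaled totals of tested rows. Ratios within a library were compared by two-sided exact permutation tests. No batch or date was found in the labels. Pairs of libraries within a group differed by chi-square values of 51.4 to 74.7 for each degree of freedom, so none was counted as a duplicate. Groups followed the sample titles.

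The members and gene lists were chosen with earlier results of these data known. Genes named are the members, called genes of the pathway, macrophage, injured neuron and neutrophil lists with at most 4 uncalled ones that define each list, the 2 most abundant and the called genes of other lists, and the 3 nearest profiles of Csf1, Csf1r and Trem2. Some genes under this rule are not reported here. Further uncalled genes named were chosen after their values were seen. Alternatives were DESeq2 1.42.0, RLE factors, limma 3.58.1 on log2(FPKM + 1), filters, a replicate block and leaving out each library. The fits were tested on simulated data. Software comprised R 4.3.3, Python 3.11.15, matplotlib 3.10.9, pandas 2.3.3, numpy 2.4.6 and scipy 1.17.1. The miRNA libraries and the qRT-PCR measurements were not analysed here.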

Additional observations from a re-analysis of the deposited data

How the results depend on the processing

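The 4 called members kept their direction and their call under all 13 alternatives, and the adjusted count moved from 0 to 4 with the DESeq2 Wald test. With each library left out in turn, 0 to 1 members passed the adjusted limit. Of the uncalled members, the log2 fold change of Trem2 ran from -0.11 (without CCI 3) to 0.24 and was -0.05 without sham 3, that of Csf2ra from -0.0024 (without CCI 3) to 0.17, and that of Il34 from -0.13 to 0.0027 (without sham 2). A filter at a mean FPKM of at least 1 removed Trem2. The Csf1r difference from macrophage markers turned to -0.21 with the 2 markers at a mean FPKM of at least 10, and its range without single libraries was 0.05 to 0.21. Of the listed genes, 22 were called higher, and 17 to 26 over the alternatives. The 4 called lower, all muscle genes, became 0 with limma on log2(FPKM + 1) and ran from 0 to 6 with single libraries left out, with 1 without sham 1. In these reversals the cause was not tested. A block for the replicate number left 4 members called, 0 of them at the adjusted limit, with a log2 fold change of 1.36 for Csf1. With this block 22 listed genes were called higher and 3 lower. For the 3 ratios the block leaves the difference of group means unchanged by arithmetic, so it was no check on them. Same-numbered libraries did not deviate together (Pearson's r across genes of -0.01, -0.03 and -0.07). This gave no sign that the numbers pair the rats, but with 3 libraries in a group it cannot exclude that same-numbered rats were handled together. Depth limits mainly Trem2, Tyrobp and Csf3r, with 72 to 235 counts in a library.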
